A study of Saccharomyces cerevisiae with 4 samples.

Results

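The 58 genes described here encode subunits of RNA polymerase II, of the Mediator complex and of the general initiation factors of budding yeast. They were taken by symbol from the platform annotation: all genes named MED, TAF, TFA, TFB or TFG with a number, together with named subunits of the polymerase, TFIIA, TFIIB, the TATA-binding protein and Mediator. They were measured by 59 of 6226 probes, since SRB8 had 2, and they make up 58 of 6189 features once the probes of a gene were averaged. Total RNA of Saccharomyces cerevisiae with the temperature-sensitive abf1-1 allele was set against RNA of wild type cells on each of 4 arrays with 2 channels, which form 1 group. Both strains were cultured at 30 °C in YPAD, a rich medium, until the OD600 was between 1.0 and 1.2, were brought to 36 °C by adding medium warmed to 42 °C, and were collected 45 min later, per the labels. The shift to 36 °C is thus common to both strains. The sources used here do not give strain background, mating type, dyes or the number of separate cultures. The p-values therefore cover array-to-array spread alone, and that spread may be technical. A ratio of total RNA cannot tell fewer transcribing cells from less RNA per cell.

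RNA polymerase II makes messenger RNA, but it finds a promoter only with the help of general factors. TFIID, built of the TATA-binding protein and the TAF proteins, binds the core promoter. TFIIA and TFIIB steady that complex, TFIIF brings in the polymerase, and TFIIE and TFIIH open the DNA. Mediator carries signals from activators to the polymerase through its tail, middle and head modules, and a detachable kinase module of Cdk8, cyclin C, Med12 and Med13 modulates it. Abf1 is an essential DNA-binding protein of many yeast promoters, and the arrays address which transcripts differ when its temperature-sensitive form is shifted to a high temperature.

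Every value is a log ratio of the 2 channels, taken as log2, as the authors deposited it and then centred on the median of its array. The sources used here give neither the log base nor the strain in the numerator. Ratios are therefore called positive or negative as deposited, and no gene is called higher or lower in the mutant. ABF1 itself had 0.99, 1.69, 1.96 and 1.82 on arrays 1 to 4, and since the allele alters the protein, its RNA level is no test of the labels. The arrays stood apart in pairs. Across the 58 members, which are not independent replicates and share each array, Pearson's r was 0.82 between arrays 1 and 3 and 0.87 between arrays 2 and 4. Between arrays of different pairs it was -0.27, -0.0089, -0.40 and -0.23 over the members, and -0.10, 0.05, -0.22 and -0.11 over all features. The labels name no batch that would part them this way. The main fit takes the 4 arrays as independent, with no term for the pairs. Its p-values therefore make no allowance for the pairs.

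For most of the transcription machinery the mean log2 ratio lay close to 0. Of the 58 members 1, TFB1, was called, that is, passed limma's test of the 4 ratios against 0 with an adjusted p below 0.05, where 3.23% of all 6189 features did so. Its ratio was negative, as for 1.86% of all features, and 0 members were called with a positive one, against 1.37%. The share of members called was 1.72%. At an unadjusted p below 0.05 there were 11 members, 3 positive and 8 negative, or 19.0%, against 20.8% of all features. The median of the members' mean ratios was -0.030, beside 0.019 for all features, and the median size, whatever the sign, was 0.16 beside 0.19. Means were negative for 33 members and positive for 25, so that 56.9% were negative, against 47.5% of all features; this difference was not tested. The 95% interval of the mean lay within a 2-fold difference either way for 54 of the 58 members, or 93.1%, beside 87.0% of all features, and it did not for TFB1, SSN2, SRB8 and MED2. The spread between arrays was smaller for the members than over all features: the median range from lowest to highest array was 0.46, beside 0.60. That range still exceeded the median size of the members' means, 0.16, so a mean near 0 can hide arrays of opposite sign.

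**Figure D1:**
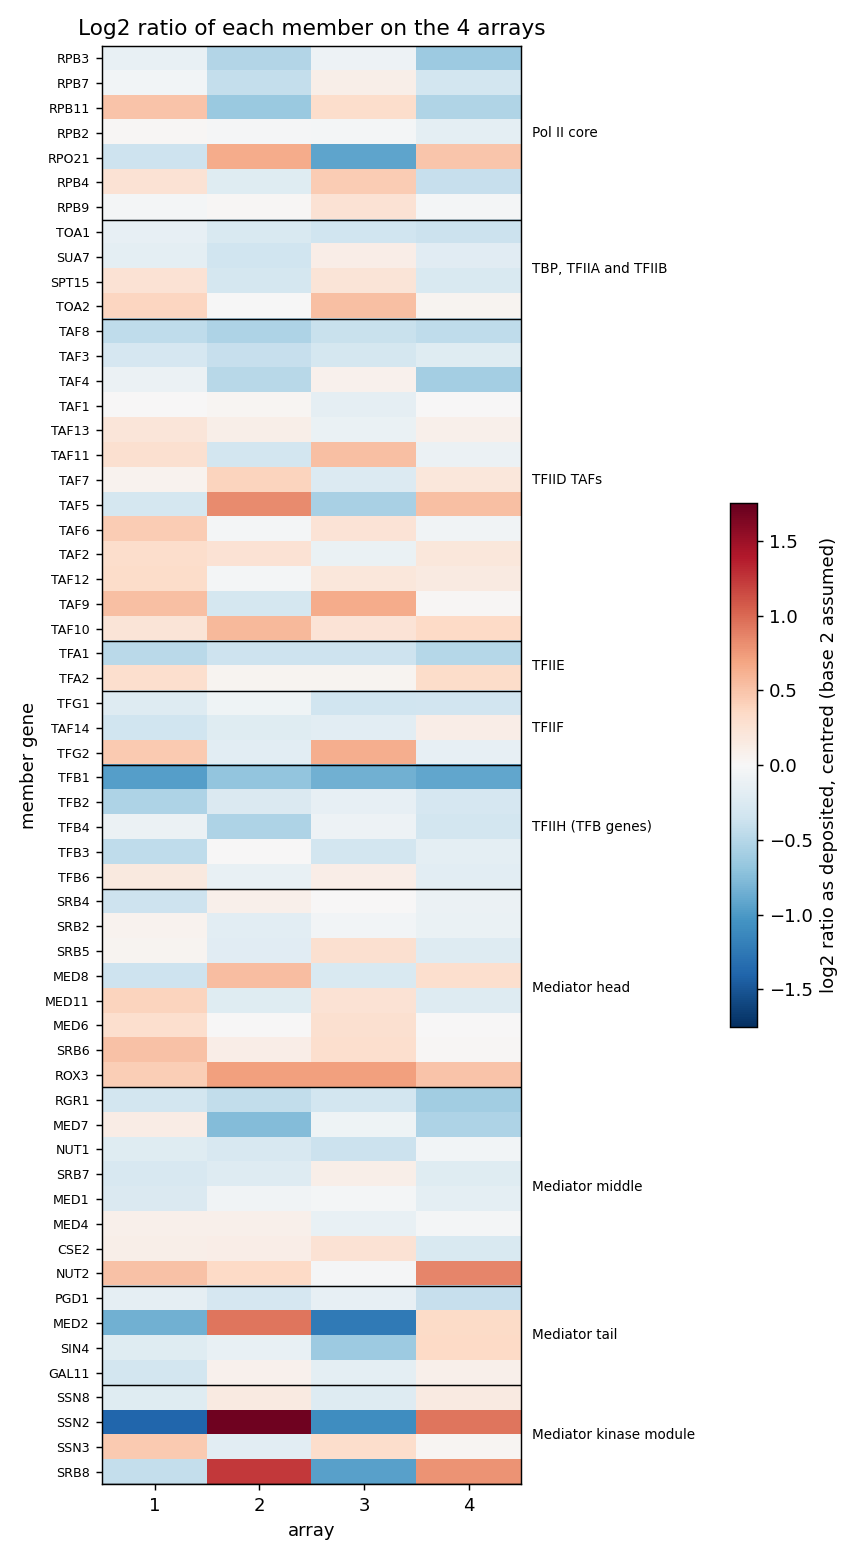
Log2 ratio as deposited of each of the 58 members (rows, grouped by complex) on arrays 1 to 4 (columns); red is positive and blue negative. Most rows are pale, TFB1 is blue on all 4 arrays, and SSN2, SRB8 and MED2 are blue on arrays 1 and 3 and red on arrays 2 and 4.

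TFIIH held the called member, and all 5 of the TFB genes measured here had negative means; TFB5 was not analysed here. TFIIH is the factor that unwinds the promoter, phosphorylates the tail of the polymerase and also serves nucleotide excision repair. TFB1, for a subunit of its core, had log2 ratios of -0.96, -0.69, -0.84 and -0.91 on arrays 1 to 4. All 4 values were negative and lay close together. The mean was -0.85 ± 0.12 (SD, n = 4), or 1.80-fold apart (limma adjusted p 0.0274), and it stood at rank 132 of 6189 features by size. With any 1 array left out the mean stayed between -0.90 and -0.81, but the limma adjusted p lay between 0.079 and 0.204 and no member was called. Nearly all calls were lost with it: without arrays 1, 2, 3 and 4 in turn 0, 22, 0 and 0 of all 6189 features were called, so this loss is not particular to TFB1. At an unadjusted p below 0.05 there were then 6, 5, 8 and 5 members, or 10.3%, 8.62%, 13.8% and 8.62%, against 14.5%, 16.4%, 17.2% and 12.2% of all features. With the signs of arrays 2 and 4 turned, tried because the orientation of each array is unstated, its mean was -0.051. The other TFB genes were not called. TFB2 and TFB4, also of the core, had -0.30 ± 0.17 and -0.26 ± 0.22, negative on all 4 arrays. TFB3, which anchors the kinase part, had -0.23 ± 0.19, and TFB6 had -0.0041 ± 0.18 (SD, n = 4 each).

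The TFIIH subunits with other names, none of them a member, did not all share this sign. SSL1, RAD3, SSL2, CCL1 and KIN28 encode a core subunit, the helicases, the cyclin and the kinase. Their mean log2 ratios lay between -0.27 and 0.15, negative for SSL1 and RAD3 and positive for the other 3. Of these 5 genes 0 were called by limma, against 3.23% of all features, and 0 had an unadjusted p below 0.05, against 20.8%. The median was 0.06, beside -0.26 for the 5 TFB genes, and this difference was not tested.

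TFIIE and TFIIF, the factors that join with or just after the polymerase, had their larger subunits at negative ratios and their second ones at positive means. TFA1, for the large subunit of TFIIE, had -0.47, -0.36, -0.36 and -0.50 on arrays 1 to 4. Its 4 ratios were negative and spanned the narrowest range among the members, 0.15. The mean of -0.42 ± 0.08 (SD, n = 4) was not called, with a limma adjusted p of 0.0905. TFA2, for the small subunit, had 0.30, 0.05, 0.04 and 0.33, positive on every array, with a mean of 0.18 ± 0.15 (limma adjusted p 0.418).

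In TFIIF, TFG1, for the large subunit, had -0.23, -0.08, -0.34 and -0.34 (mean -0.25 ± 0.13, limma adjusted p 0.259). TFG2, for the second subunit, had 0.46, -0.19, 0.63 and -0.15 on arrays 1 to 4, so its mean of 0.19 ± 0.42 hides a change of sign (SD, n = 4 each). TAF14, another subunit of TFIIF that is also found in TFIID and in chromatin remodelling complexes, had -0.15 ± 0.20, with array 4 alone positive.

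TFIID, the promoter-binding complex, had means of both signs. Of its 13 TAF genes 9 had positive and 4 negative mean log2 ratios, and the median was 0.10. None was called by limma, against 3.23% of all features. At an unadjusted p below 0.05 there were 3 of the 13, against 20.8% of all features. TAF8, for a subunit of TFIID that is not part of SAGA, had -0.44, -0.54, -0.39 and -0.44 on arrays 1 to 4. These 4 values were all negative and nearly alike, with a mean of -0.45 ± 0.06 (SD, n = 4; limma adjusted p 0.0747). TAF3, whose protein pairs with that of TAF10 through histone folds, was also negative on every array, between -0.41 and -0.22. TAF10, for a subunit shared by TFIID and the coactivator SAGA, had 0.22, 0.57, 0.23 and 0.34, all positive, with a mean of 0.34 ± 0.16 (limma adjusted p 0.169). TAF10 and TAF8 thus had opposite signs on all 4 arrays, although their proteins are partners in TFIID.

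Of the other TAFs that SAGA shares, TAF5, TAF6, TAF9 and TAF12, none kept 1 sign on all 4 arrays. TAF5 had -0.31, 0.83, -0.56 and 0.53 on arrays 1 to 4. TAF9 had 0.53, -0.31, 0.65 and 0.03 on arrays 1 to 4, and TAF6 had 0.45, -0.03, 0.24 and -0.06. TAF12 was closer to 0, between -0.04 and 0.32. TAF1, for the scaffold of TFIID, lay between -0.16 and 0.03, so near 0 on every array. TAF2, whose gene overlaps another in the RefSeq annotation, had 0.16 ± 0.19 (SD, n = 4), and its probe may not tell the genes apart.

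The TATA-binding protein and the factors that bind beside it were not called. SPT15, the gene of that protein, had 0.25, -0.31, 0.22 and -0.27 on arrays 1 to 4, with a mean of -0.02 ± 0.30 (SD, n = 4). SUA7, for TFIIB, had -0.15 ± 0.19. The 2 subunits of TFIIA parted in sign: TOA1 had -0.14, -0.26, -0.35 and -0.37 on arrays 1 to 4, and TOA2 had 0.38, -0.004, 0.53 and 0.05. TOA1 was negative on every array with a mean of -0.28 ± 0.10, and TOA2 averaged 0.24 ± 0.26 and was high on arrays 1 and 3. The limma adjusted p-values were 0.204 for TOA1 and 0.368 for TOA2.

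**Figure D2:**
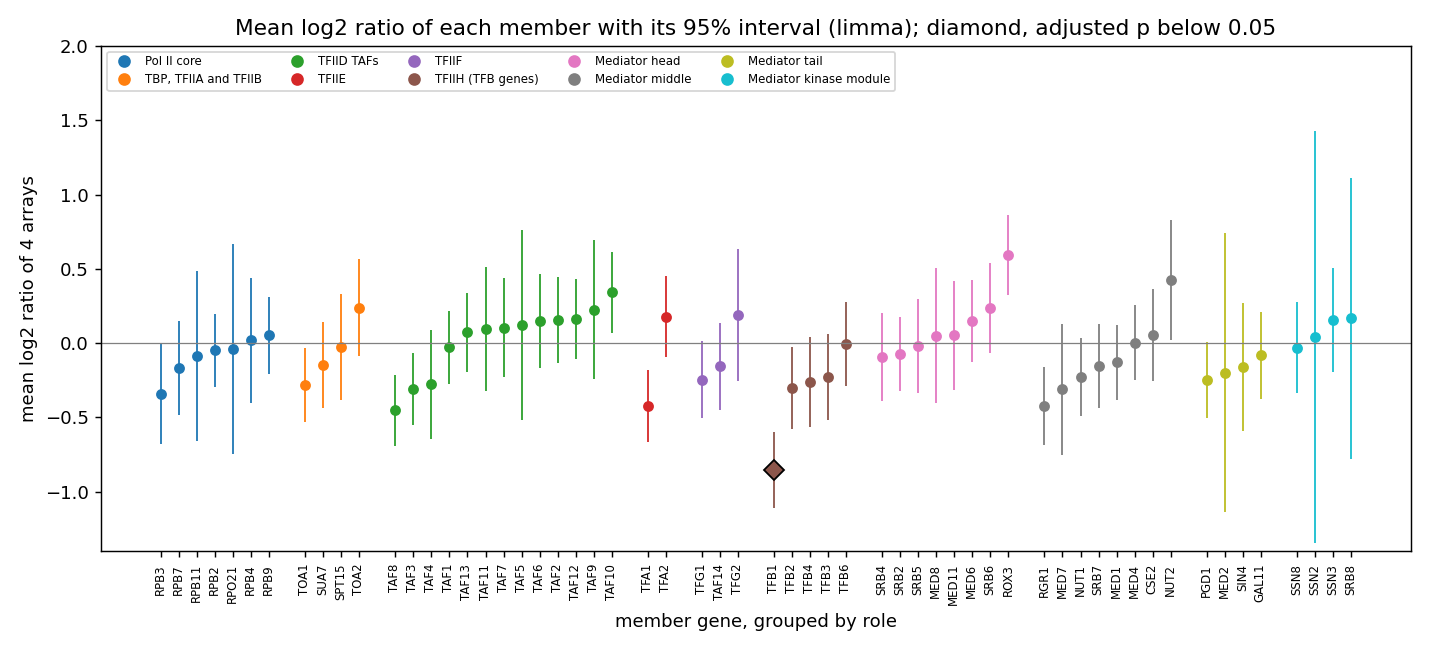
Mean log2 ratio of the 4 arrays for each of the 58 members (points, coloured by complex) with the 95% interval from limma (bars). The diamond marks TFB1, the 1 called member at -0.85; ROX3 has the largest positive mean, 0.59, and SSN2, SRB8 and MED2 have the widest intervals.

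The 7 genes for subunits of the polymerase had means between -0.34 and 0.05. Of these 0 were called by limma, against 3.23% of all features, and 1 had an unadjusted p below 0.05, against 20.8%. RPB3, for a subunit of the assembly platform, had -0.13, -0.51, -0.08 and -0.63 on arrays 1 to 4, all negative, with a mean of -0.34 ± 0.27 (SD, n = 4; limma adjusted p 0.238). RPB11, whose protein pairs with that of RPB3, changed sign between the arrays, with 0.50, -0.64, 0.31 and -0.53 on arrays 1 to 4. Both genes were still higher on the same arrays and lower on the same arrays. RPB9, which serves start site choice and proofreading, had the largest positive mean of the group, only 0.05 ± 0.13.

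The catalytic centre is built by the largest subunits, and their genes differed in how far the arrays lay apart. RPO21, for the largest subunit with the repeated tail, had -0.36, 0.65, -0.93 and 0.49 on arrays 1 to 4. Its mean of -0.04 ± 0.74 says little, since the arrays disagreed in sign. RPB2, for the second largest subunit, lay between -0.16 and 0.02 on all 4 arrays (mean -0.05 ± 0.08; SD, n = 4 each). The stalk genes RPB4 and RPB7 had 0.02 ± 0.39 and -0.17 ± 0.24.

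Mediator had 24 members, with 11 positive and 13 negative means. Of these 0 were called by limma, against 3.23% of all features, and 3 had an unadjusted p below 0.05, against 20.8%. The head module contacts the polymerase, and 5 of its 8 genes had positive means. ROX3, for Med19 of the head, had 0.43, 0.71, 0.72 and 0.50 on arrays 1 to 4. All 4 ratios were positive, and the mean of 0.59 ± 0.15 (SD, n = 4) was the largest positive one among the members. Its limma adjusted p of 0.0539 lay just above the threshold. SRB4, for Med17, the scaffold of the head, had -0.37, 0.095, 0.0045 and -0.10 (mean -0.09 ± 0.20), and array 1 alone lay far from 0. MED6 and SRB6 were positive on all 4 arrays at means of 0.15 ± 0.16 and 0.24 ± 0.21, and neither was called.

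In the middle module 5 of 8 genes had negative means. RGR1, for Med14, the backbone that holds the modules together, had -0.33, -0.43, -0.32 and -0.61 on arrays 1 to 4, all negative, with a mean of -0.42 ± 0.13 (SD, n = 4; limma adjusted p 0.105). NUT2, for Med10, had 0.51, 0.35, -0.02 and 0.86, so that array 3 alone was not positive, with a mean of 0.42 ± 0.37 (limma adjusted p 0.224). MED7 had 0.13, -0.76, -0.070 and -0.55, so it lay lowest on arrays 2 and 4. SOH1, the gene of Med31 and outside the members by its symbol, had -0.71, -0.47, -0.29 and -0.37, and its mean of -0.46 ± 0.18 was not called (limma adjusted p 0.105).

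The tail module receives activators, and its 4 genes had negative means between -0.25 and -0.08. PGD1, for Med3, had -0.16, -0.29, -0.15 and -0.40 on arrays 1 to 4 (mean -0.25 ± 0.12, limma adjusted p 0.251). MED2 had -0.84, 0.94, -1.23 and 0.34 on arrays 1 to 4, with a mean of -0.20 ± 1.01 (SD, n = 4 each). PGD1 was thus negative throughout while MED2, whose protein binds that of PGD1 in the tail, changed sign between the arrays. GAL11, for Med15, the main target of activators, lay between -0.31 and 0.09, and SIN4, for Med16, between -0.64 and 0.34.

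The kinase module held the members with the widest ranges. SSN2, for Med13, which links the module to Mediator, had -1.39, 1.71, -1.09 and 0.93 on arrays 1 to 4. SRB8, for Med12, which activates the kinase, had -0.41, 1.24, -0.95 and 0.79 on arrays 1 to 4. Both genes were low on the same arrays and high on the same arrays. The 2 probes of SRB8 showed this separately, with -0.27, 0.89, -0.85 and 0.34 for one and -0.56, 1.58, -1.04 and 1.24 for the other. By range SSN2 stood at rank 79 and SRB8 at rank 233 of 6189 features. The means were 0.04 ± 1.52 and 0.17 ± 1.02 (SD, n = 4), and limma's adjusted p was 0.977 and 0.85.

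The enzymatic pair of the same module varied far less. SSN8, for cyclin C, had -0.22, 0.16, -0.23 and 0.16 on arrays 1 to 4, the same signs as SSN2 at a small size. SSN3, for the kinase Cdk8, had 0.46, -0.19, 0.31 and 0.04, so arrays 1 and 3 were the high ones. The means were -0.03 ± 0.22 for SSN8 and 0.16 ± 0.29 for SSN3 (SD, n = 4 each).

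**Figure D3:**
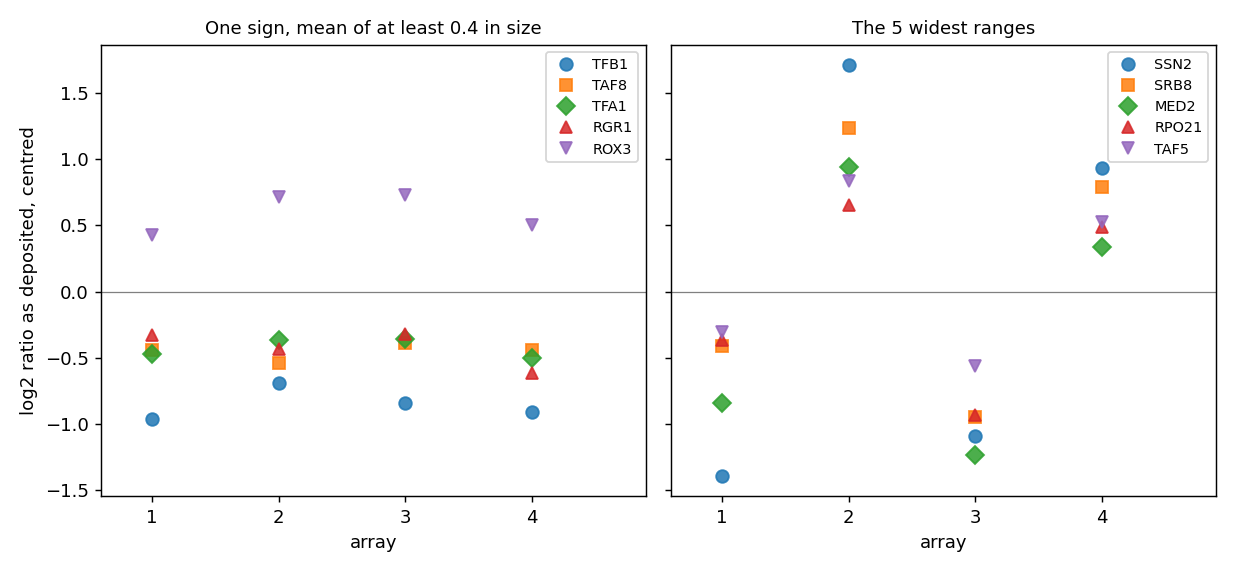
Log2 ratio as deposited (vertical axis) on arrays 1 to 4 (horizontal axis) for the 5 members with 1 sign and a mean of at least 0.4 in size (left) and the 5 members with the widest ranges (right). On the left each gene stays on its side of 0; on the right all 5 genes are negative on arrays 1 and 3 and positive on arrays 2 and 4.

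The members could be read by sign as well as by size. The ratio had 1 sign on all 4 arrays for 18 members, or 31.0%, beside 31.1% of all features: 13 were negative throughout and 5 positive. By direction the shares lay apart, with 22.4% of the members negative throughout, against 16.4% of all features, and 8.62% positive throughout, against 14.7%, which was not tested. Of the 13, 3 were among the 5 TFB genes. The 5 positive ones were MED6, ROX3, SRB6, TAF10 and TFA2. Negative ratios on arrays 1 and 3 with positive ones on arrays 2 and 4 were seen for 8 members: GAL11, MED2, MED8, RPO21, SRB8, SSN2, SSN8 and TAF5. Of these, 6 belong to Mediator, or 25.0% of its 24 members, beside 18.0% of all features. The opposite pattern was seen for 9 members, among them RPB4, RPB11, SPT15, TAF6 and TAF11. Both shares, 13.8% and 15.5%, lay below those of all features, 18.0% and 16.9%, and these differences were not tested.

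**Figure D4:**
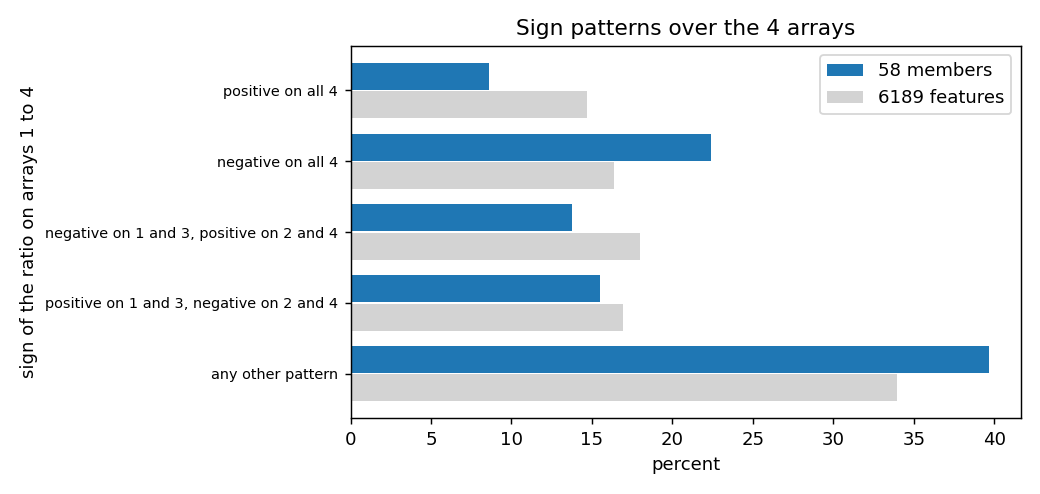
Share in percent (horizontal axis) of the 58 members and of all 6189 features with each pattern of signs over arrays 1 to 4 (vertical axis). One sign on all 4 arrays was held by 31.0% of the members and 31.1% of all features.

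The fit was also run within each pair of arrays. On arrays 1 and 3 alone limma called 17 members, 8 positive and 9 negative, or 29.3%, against 33.3% of all features. On arrays 2 and 4 alone it called 20, 9 positive and 11 negative, or 34.5%, against 42.0% of all features. With 2 arrays each, these fits measure only the spread within a pair. There were 10 members in both sets, which is 58.8% of the first and 50.0% of the second. The overlap and its signs were not counted over all features, so they are not read as a trait of the members. Of the 10, TFB1, TAF8, TFA1 and ROX3 had the same sign in both, and MED2, RPB11, RPO21, SRB8, SSN2 and TAF5 had opposite signs. TFB1 averaged -0.90 in the first of these fits and -0.80 in the second.

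Gene length went along with the ratios on arrays 1 and 3. The members range from RPB11 with 363 bp to RPO21 with 5202 bp in the RefSeq annotation. Across the 58 members Pearson's r between the log2 ratio and the logarithm of length was -0.50 on array 1 and -0.61 on array 3, and 0.30 and 0.21 on arrays 2 and 4. Across all 5535 genes with a length it was -0.17, 0.21, -0.30 and 0.16 on arrays 1 to 4. Without SSN2, SRB8, MED2 and RPO21 the members still had -0.42 and -0.54 on arrays 1 and 3, but 0.03 and -0.03 on arrays 2 and 4. These are correlations across genes of the same array, given as a description.

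Median length also differed between the sign patterns, which rest on the same ratios as these correlations. The 8 members negative on arrays 1 and 3 and positive on arrays 2 and 4 had a median length of 2822 bp. The 9 with the opposite pattern had 924 bp. The lengths overlapped, from 672 to 5202 bp in the first set and from 363 to 1551 bp in the second. The 29 members longer than the median of 1035 bp had a median ratio of -0.23, -0.075, -0.17 and -0.10 on arrays 1 to 4, against 0.13, -0.13, 0.11 and -0.12 for the 29 others. The long and the short members thus lay apart on arrays 1 and 3 and close together on arrays 2 and 4. Not every long gene spread widely: RPB2, NUT1 and TAF1, with 3675, 3399 and 3201 bp, had ranges of 0.18, 0.33 and 0.19. The part of length in the ratios was not tested.

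**Figure D5:**
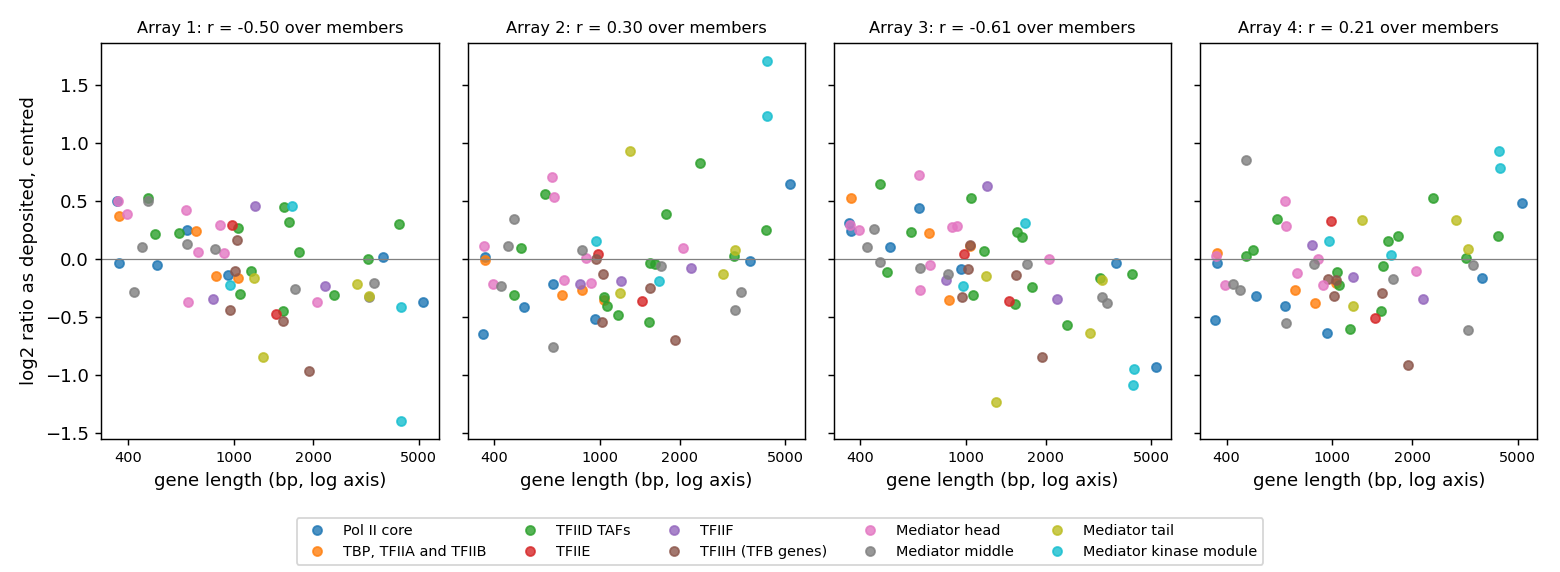
Log2 ratio as deposited (vertical axis) against gene length in bp (horizontal log axis) for the 58 members on each array, coloured by complex. On arrays 1 and 3 long genes lie lower, with r of -0.50 and -0.61; on arrays 2 and 4 r is 0.30 and 0.21, and SSN2 and SRB8 lie highest among the long genes.

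Genes that work with this machinery but are not members were set beside it in 5 lists: subunits shared by the 3 polymerases, the other TFIIH subunits, regulators of the TATA-binding protein, elongation factors, and enzymes of the polymerase tail. Of these 34 genes limma called 2, both negative, or 5.88%, against 3.23% of all features. At an unadjusted p below 0.05 there were 6, against 20.8% of all features. RPB8, for a subunit common to polymerases I, II and III, had -0.64, -0.91, -0.57 and -0.71 on arrays 1 to 4 (mean -0.71 ± 0.15, limma adjusted p 0.0369). ELF1, for an elongation factor that travels with the polymerase, had -0.62, -0.94, -0.59 and -1.03 (mean -0.80 ± 0.22, limma adjusted p 0.0376; SD, n = 4 each). Both were negative on every array. Neither passed with any 1 array left out, where the limma adjusted p lay between 0.118 and 0.247. At most 22 of all 6189 features were called in those fits. Nor did either pass with quantile normalization (limma adjusted p 0.0509 and 0.0646), where 1.58% of all features were called.

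The other shared subunits RPB5, RPO26, RPB10 and RPC10 had means between -0.12 and 0.24. Of 12 elongation factor genes 8 had positive and 4 negative means. Of 4 regulators of the TATA-binding protein, and of 8 genes for kinases and phosphatases of the polymerase tail, 0 were called by limma. Over all features 3.23% were called. At an unadjusted p below 0.05 there were 0 of these 4 regulators and 2 of the 8 tail enzymes, against 20.8% of all features.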

How the data were processed

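Per the labels, each of 4 arrays carried RNA of abf1-1 and of wild type cells in 2 channels. For every probe the authors deposited 1 log ratio on each array, read here as log2, since values of both signs span -4.30 to 2.67. The sources used here name no base, numerator, dye, background correction or normalization. Deposited medians were -0.01, 0.03, -0.03 and 0.02 on arrays 1 to 4, with 0 missing values and no spot brightness, and precision is limited by the number of arrays.

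The platform annotation gave 5576 probes 1 gene and 650 none. Arrays were centred on the median, probes of a gene averaged (36 genes), and each feature tested against 0 with lmFit and eBayes (limma 3.58.1, R 4.3.3), two-sided, with no term but the mean and Benjamini-Hochberg adjustment over 6189 features. Simulated data with the real spreads had 74 of 100 features shifted by 1 called, 89 of 100 shifted by 2, and 18 of 5989 unshifted. The noise was drawn separately for each array, without the pairs seen in the real arrays. These rates need not hold for the real data. Tables used Python 3.11.15 and pandas 2.3.3, plots matplotlib 3.10.9, and gene lengths the RefSeq table of assembly R64.

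Members and lists were chosen with earlier results of these data known. The rule for naming took called genes, the largest positive and negative mean of each group, members of 1 sign with a mean of at least 0.4 in size, and the 4 widest ranges; other genes were named after their values were seen. The promoter part of that rule was not used here. Other settings for centring, scaling, normalization, weights, probes, thresholds, signs and arrays left out were also tried.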

Additional observations from a re-analysis of the deposited data

How the results depend on the processing

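TFB1 was the 1 member called under no centring, equal scaling, quantile normalization, robust eBayes, array weights, single probes and without probes of repeated values. Its mean log2 ratio lay between -0.87 and -0.85 and its limma adjusted p between 0.0218 and 0.0398. The share of members called was 1.72% in each setting, beside 1.58% to 3.78% of all features, the least with quantile normalization. The number of members called was 17 on arrays 1 and 3 only, 20 on arrays 2 and 4 only, 0 at an adjusted p below 0.01, where 2 of all features were called, and 11 at an unadjusted p below 0.05. With any 1 array left out it was 0, where 0 to 22 of all 6189 features were called, the TFB1 mean lay between -0.90 and -0.81 without a call, and the members' median lay between -0.085 and -0.041. When arrays 2 and 4 had their signs turned, 3 members were called, SSN2 at -1.28, SRB8 at -0.85 and MED2 at -0.84, against 4.88% of all features, while TFB1 had -0.051, ELF1 0.19 and RPB8 0.10. The members' median was then 0.038, and -0.086 on arrays 2 and 4 only. The cause of these changes was not tested. The arrays form 1 group, and each ratio already pairs both strains on 1 array, so no further pairing was applied.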

Other observations

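Some members share an upstream region with a gene transcribed the other way, per the systematic names and the gene order in RefSeq, and these pairs were looked at after the members' values were seen. TFB1 lies next to SUM1, for a repressor of middle sporulation genes, which had -0.25, 0.05, -0.22 and -0.36 on arrays 1 to 4 and was not called (mean -0.19 ± 0.17, limma adjusted p 0.398). ROX3 lies next to the ribosomal protein gene RPL32, which had -0.16, -0.81, -0.17 and -0.44, negative on every array where ROX3 was positive. TAF10 lies next to SEC5, for a subunit of the exocyst, which had -1.04, 1.88, -2.26 and 2.33 on arrays 1 to 4. TAF10 was positive on all 4 arrays with a range of 0.34, so the neighbours differed widely in how far the arrays lay apart. MED2 lies next to ATP16, for a subunit of ATP synthase, which lay between -0.47 and -0.25 on all 4 arrays while MED2 changed sign. SSN2 lies next to YDR444W, which had -0.24, 0.45, -0.37 and -0.01 on arrays 1 to 4. SRB2 of the Mediator head lies next to NCP1, which had -0.84, -0.76, -0.53 and -0.81. NCP1 was called (mean -0.73 ± 0.14, limma adjusted p 0.0319), as were 3.23% of all features. SRB2 was not called (mean -0.07 ± 0.10, limma adjusted p 0.742).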
